A study of Mus musculus with 12 samples.

Results

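RNA levels in subcutaneous white adipose tissue (scWAT) of *Jmjd1a* HY/HY mice at 30°C were compared with those of wild-type mice at 30°C. This comparison uses 6 of the 12 libraries of the study, 3 from wild-type (*Jmjd1a* +/+) and 3 from *Jmjd1a* HY/HY mice, chosen by their genotype and temperature labels. The mice were females on a C57BL/6J background and were 16 weeks old when the treatment began. They were acclimated for 1 week at 30°C and then kept for 1 further week at 30°C, and were caged singly. The other 6 libraries, 3 of each genotype, came from other mice of the same kind that spent the last week at 8°C. They entered the statistical model and are given beside the values at 30°C where stated. The HY allele was made by CRISPR-Cas9 in fertilized eggs and is carried in every cell of the body, so a difference in scWAT need not arise in adipocytes. The females used in the study came from 1 line, named line #1.

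*Jmjd1a*, listed as *Kdm3a* in the annotation, encodes a demethylase that removes methyl groups from lysine 9 of histone H3, a mark of silent chromatin. At 30°C a mouse needs to make little heat, and its scWAT stores fat with few of the heat-producing beige adipocytes that appear in the cold. The comparison at 30°C therefore asks which genes differ between the genotypes without the stimulus of cold. The HY allele carries H1122Y, a histidine to tyrosine change in the catalytic domain of the protein. The coding sequence of *Kdm3a* around this codon is shown to place the change, from the GENCODE vM1 transcripts of the mouse reference (coding bases 3334 to 3396 of 3972, read 5′ to 3′), with the wild-type histidine codon in capitals.

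Kdm3a coding strand: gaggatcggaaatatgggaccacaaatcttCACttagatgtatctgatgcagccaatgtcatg

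The counts do not separate the alleles, so the genotype of each library could not be read from them. The level of *Kdm3a* itself (chromosome 6 from 71588970 to 71632990, mm10) was 46.5, 61.7 and 39.8 CPM (read-pair counts scaled to the size of the library) in the 3 wild-type libraries and 52.7, 46.4 and 37.4 CPM in the *Jmjd1a* HY/HY libraries. The ranges overlapped, and the log2 fold change (log2FC) of *Kdm3a* was −0.12 ± 0.16 (standard error). With the edgeR quasi-likelihood test used throughout, the p-value adjusted by Benjamini-Hochberg was 0.753 for *Kdm3a*. None of the 40 tested genes nearest to *Kdm3a*, 20 on each side, was called, where 1.00% of all genes tested were. *Igkc*, an immunoglobulin chain, had the highest log2FC among them at 2.52 (adjusted p = 0.189), with 174 CPM in replicate 1 of *Jmjd1a* HY/HY mice and 4.99 CPM in replicate 3. *Xist*, which is expressed from the inactive X chromosome, was at 360.1 to 486 CPM in wild-type and at 386 to 414 CPM in *Jmjd1a* HY/HY libraries. The Y-linked genes *Ddx3y*, *Kdm5d*, *Uty* and *Eif2s3y* were at 0 to 0.136 CPM in all 6, as in female mice.

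The sense-strand counts of a library summed to between 18305586 and 23652011 in wild-type and between 21043000 and 26352081 in *Jmjd1a* HY/HY mice. White adipocyte genes were present in every library, the summed level of 11 markers being 28226 to 51662 CPM in wild-type and 27065 to 62014 CPM in *Jmjd1a* HY/HY mice. In bulk tissue, fewer cells of a type and less RNA per cell cannot be told apart. A pair of libraries stood apart in their tissue make-up. Replicate 2 of wild-type mice held 2134 CPM of 20 skeletal muscle markers, against 64.8 to 123.1 CPM in the other 5, and 140 CPM of 7 epidermis markers, against 9.20 to 19.9 CPM. Replicate 3 of *Jmjd1a* HY/HY mice had the highest white adipocyte markers and the lowest mammary epithelium markers (1358 CPM), and 16.8% of its counts fell on mitochondrial DNA, against 9.30% to 13.5% in the others. On a principal component analysis of the 6 libraries the first component, with 39.3% of the variance, had these 2 libraries at its ends. On the second component, with 22.4%, replicate 3 of wild-type mice lay at 47.5 and the others between −35.5 and 5.07. The sample weight from limma was 0.368 for that library, 0.353 for replicate 3 of *Jmjd1a* HY/HY mice and 0.804 for replicate 2 of wild-type mice.

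**Figure D1:**
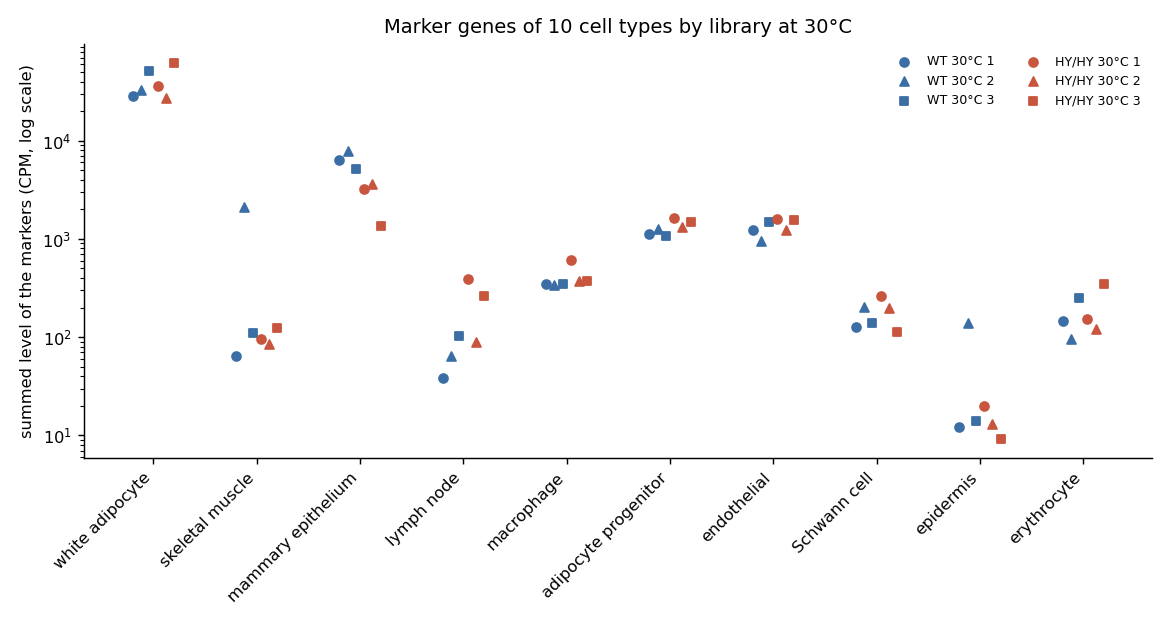
Summed level of the marker genes of 10 cell types (CPM, log scale) in each of the 6 libraries at 30°C, with wild-type libraries in blue, *Jmjd1a* HY/HY libraries in red and the replicate number by the shape of the point. Skeletal muscle and epidermis markers are high in replicate 2 of wild-type mice alone, and the mammary epithelium markers of the 3 *Jmjd1a* HY/HY libraries (1358 to 3629 CPM) lie below those of the 3 wild-type libraries (5155 to 7882 CPM).

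At 30°C the *Jmjd1a* HY/HY mice had 93 genes called higher and 73 called lower than wild-type mice, which is 1.00% of the 16540 genes tested (0.562% higher and 0.441% lower). Calls needed an adjusted p under 0.05 together with a ratio above 1.5 or below 0.67, and the model held all 12 libraries, with 1 estimate of the spread for each gene. The 166 called genes had adjusted p-values between 0.0104 and 0.0473, and in all 166 the 3 libraries of one genotype lay above the 3 of the other. Such separation was seen in 18.3% of all genes tested. The call rests on the spread at both temperatures: the biological coefficient of variation was 25.5% among the 6 libraries at 30°C, 13.9% among the 6 at 8°C and 20.7% in the joint model. When edgeR was given the 6 libraries at 30°C alone it called 0 genes, with a lowest adjusted p of 0.135. At an unadjusted p under 0.05 it found 1820 of 16390 genes (11.1%), which include all 166. The 166 genes were called on the same 6 libraries, so this overlap is no independent check of them. The genes described below as risen or fallen are those called by the joint model.

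The number of calls also moved with single libraries. Without replicate 2 of wild-type mice 11 genes were higher and 25 lower. Leaving out replicate 3 of *Jmjd1a* HY/HY mice instead gave 47 higher and 24 lower. Without both, 38 were higher and 26 lower. Replicate 1 of wild-type mice, whose markers were not unusual, weighed as much: without it 5 genes were higher and 21 lower, whereas leaving out replicate 1 of the *Jmjd1a* HY/HY group gave 271 higher and 92 lower. The fold changes moved less than the calls. All 166 genes kept their sign without either or both of the unusual libraries, and without both the median log2FC was 1.02 for the 93 higher genes, against 1.08 with all libraries, and −1.30 for the 73 lower genes, against −1.55. An adjusted p under 0.05 in each of these 3 leave-outs was reached by 17 of the 166, 8 higher and 9 lower, and 13 of the 166 had an adjusted p under 0.05 whichever single library was left out.

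**Figure D2:**
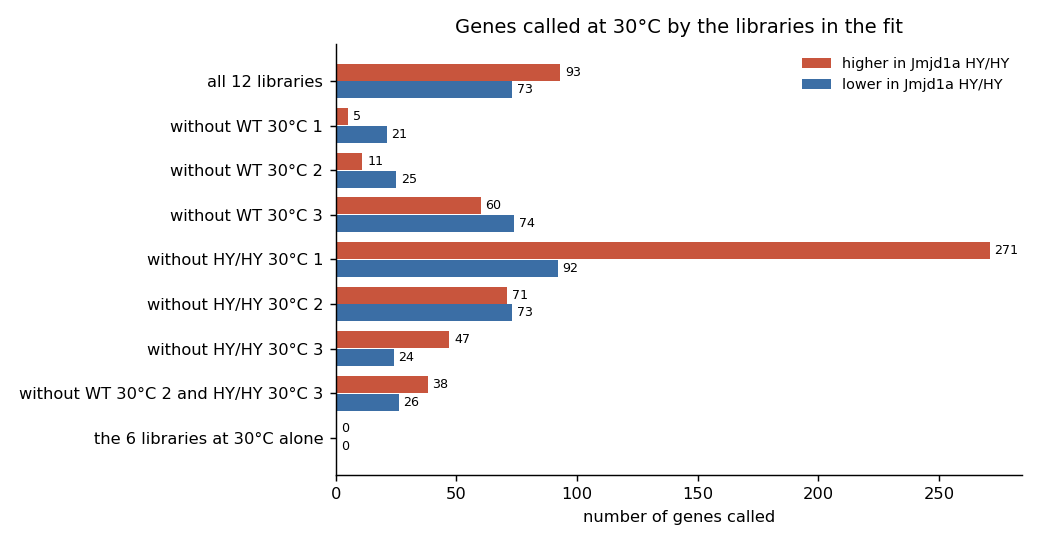
Number of genes at 30°C called higher (red) and lower (blue) in the *Jmjd1a* HY/HY group, by the libraries in the model. The bars start at 93 and 73 with all 12 libraries, fall to 5 and 21 without replicate 1 of wild-type mice, and are 0 with the 6 libraries at 30°C alone.

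**Figure D3:**
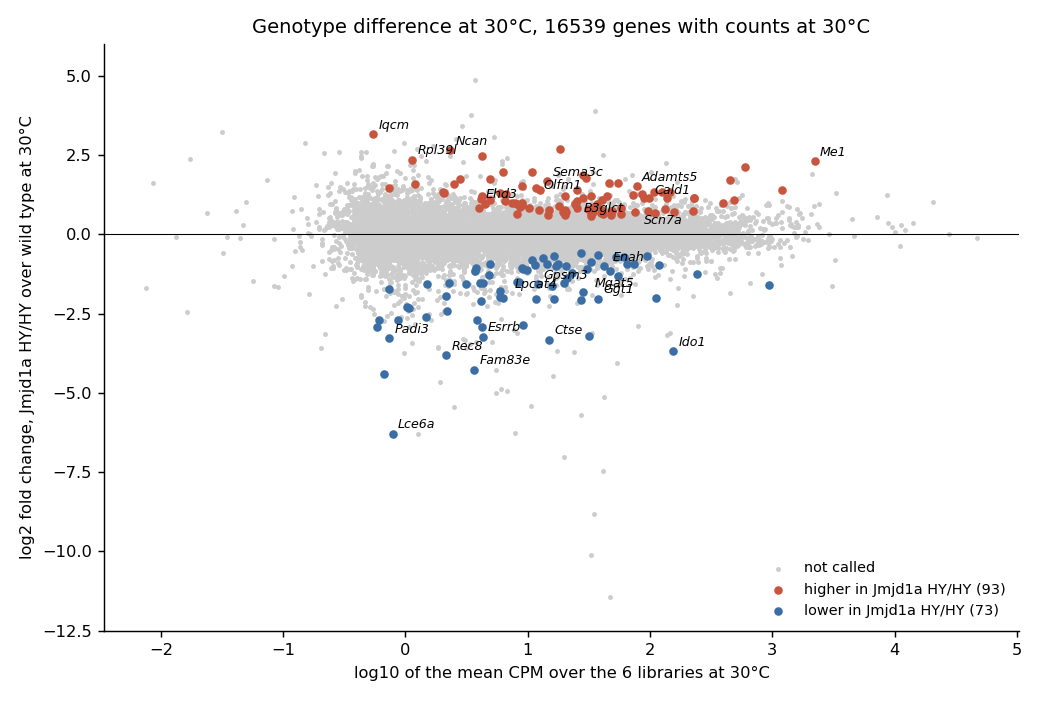
Log2 fold change of *Jmjd1a* HY/HY over wild-type mice at 30°C against the log10 of the mean CPM, for the 16539 tested genes with counts at 30°C. Called genes are coloured (93 higher in red, 73 lower in blue), the others grey, and the names are those of the genes described by size of change.

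Of the genes that stayed past the threshold without the unusual libraries, 7 named genes were higher. *Sema3c*, a secreted semaphorin, had levels of 4.94, 11.0 and 4.57 CPM in wild-type and of 19.99, 24.9 and 21.4 CPM in *Jmjd1a* HY/HY libraries, a 3.20-fold rise (log2FC 1.68 ± 0.28, adjusted p = 0.0268). *Adamts5* (chromosome 16), a metalloprotease that cuts aggrecan in the extracellular matrix, was at 36.7, 52.2 and 31.3 CPM against 109, 100.4 and 137 CPM, a 2.88-fold rise (adjusted p = 0.0162). For both genes every *Jmjd1a* HY/HY library lay well above the highest wild-type library. *Olfm1*, a secreted olfactomedin, rose 2.30-fold, from 19.9 ± 2.04 to 45.7 ± 6.15 CPM (SD, n = 3; adjusted p = 0.0227 from edgeR). *Cald1*, which encodes the actin- and myosin-binding caldesmon, rose 2.21-fold, from 55.5 ± 7.11 to 122 ± 15.3 CPM (SD, n = 3; adjusted p = 0.0131 from edgeR). The other three were *B3glct*, a glucosyltransferase of thrombospondin repeats (2.08-fold), *Ehd3*, which acts in the recycling of endosomes (1.90-fold), and *Scn7a*, an atypical sodium channel (1.64-fold). Of these 7 genes, *Cald1* and *Ehd3* kept an adjusted p under 0.05 whichever library was left out, and the other five reached between 0.0518 and 0.0721 without replicate 1 of wild-type mice.

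A further 8 named genes fell and stayed past the threshold in the same way. *Lce6a* (chromosome 3), a gene of the cornified envelope of skin, had 0.861, 1.59 and 2.23 CPM in wild-type libraries and 1, 0 and 0 counts in *Jmjd1a* HY/HY libraries, which makes it at least 12.5-fold lower against a floor of 3 counts per library (adjusted p = 0.0104). *Rec8*, the cohesin of meiotic chromosomes, was at 4.08, 5.16 and 2.82 CPM against 0.116, 0.413 and 0.312 CPM, a log2FC of −3.81 ± 0.43 (adjusted p = 0.0104). Both are genes of low level in scWAT, but neither had a *Jmjd1a* HY/HY library near the wild-type range. *Ggt1*, the enzyme that breaks down extracellular glutathione, was at 49.6, 63.2 and 69.1 CPM against 11.9, 22.8 and 9.46 CPM, 4.10-fold lower (adjusted p = 0.0158). *Fam83e* fell by 4.27 on the log2 scale, though its wild-type libraries ranged from 2.49 to 13.9 CPM. *Gpsm3*, a modulator of G protein signalling, was 2.99-fold lower, *Lpcat4*, a lysophospholipid acyltransferase, 2.34-fold lower, and *Mgat5*, which makes branched N-glycans, 2.13-fold lower. *Enah*, a regulator of actin filaments, fell by 1.00 on the log2 scale, from 56.0 ± 2.65 to 28.0 ± 5.64 CPM (SD, n = 3; adjusted p = 0.0168 from edgeR, and 0.0518 without replicate 1 of wild-type mice). The other seven kept an adjusted p under 0.05 whichever library was left out. For any single gene, the exact permutation test of 3 libraries against 3 cannot give a two-sided p below 0.1. The 15 genes were named among those whose genotypes do not overlap, which fixes that p at 0.1, so it tells nothing more about them.

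Among called genes that lost the call without one or both of the unusual libraries, the largest rises were those of *Iqcm*, *Ncan*, *Rpl39l* and *Me1*. *Iqcm* was at 0.0453, 0.0361 and 0.266 CPM in wild-type and at 1.59, 0.826 and 0.520 CPM in *Jmjd1a* HY/HY libraries (log2FC 3.16, adjusted p = 0.0465). *Ncan*, the proteoglycan neurocan, was at 0.453 to 0.758 CPM against 1.74, 8.16 and 2.08 CPM. *Rpl39l* encodes a copy of a ribosomal protein and was at 0.180 to 0.744 CPM against 1.46 to 2.40 CPM. Because the counts leave out read pairs with several alignments, the level of *Rpl39l* and of *Rps4l*, another such copy (1.92-fold higher), is uncertain. The largest falls of this kind were those of *Ido1*, *Ctse*, *Padi3* and *Esrrb*. *Ido1*, the first enzyme of tryptophan breakdown to kynurenine, was at 179, 406 and 278 CPM in wild-type and at 32.4, 23.2 and 11.7 CPM in *Jmjd1a* HY/HY libraries, 12.8-fold lower (adjusted p = 0.0320), so that its lowest wild-type library lay far above every *Jmjd1a* HY/HY library. The adjusted p of *Ido1* was 0.0834 with replicate 2 of wild-type mice left out and 0.0767 with replicate 3 of *Jmjd1a* HY/HY mice left out. *Ctse*, the protease cathepsin E, was at 9.83 to 47.1 CPM against 2.08 to 3.06 CPM, and *Padi3*, a peptidylarginine deiminase of skin and hair, at 1.04 to 1.55 CPM against 0.104 to 0.172 CPM. *Esrrb*, an orphan nuclear receptor and the one member called among 17 PGC-1 coactivators and their partners (0.441% of all genes were called lower), was at 4.90, 11.5 and 6.75 CPM against 0.116, 1.45 and 0.884 CPM.

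Among the genes of de novo lipogenesis, which make fatty acids from acetyl-CoA, 4 of 17 rose in the *Jmjd1a* HY/HY group at 30°C. All 17 members of the list had a positive log2FC, with a median of 1.05 against −0.01 over all genes tested. *Me1*, *Acss2*, *Acaca* and *Pnpla3* were called higher (4 of 17, against 0.562% of all genes), none was called lower, and in 12 of the 17 all *Jmjd1a* HY/HY libraries lay above all wild-type libraries (against 7.66% of all genes). *Me1*, the malic enzyme that supplies NADPH, was at 586, 794 and 863 CPM in wild-type and at 2148, 5967 and 2916 CPM in *Jmjd1a* HY/HY libraries (4.92-fold, log2FC 2.30 ± 0.34, adjusted p = 0.0187). *Acss2*, which makes acetyl-CoA from acetate, was at 210.4, 230 and 235 CPM against 623, 1702 and 604 CPM (4.34-fold, adjusted p = 0.0268). *Acaca*, the acetyl-CoA carboxylase of the cytosol, was at 555, 693 and 738 CPM against 1453, 2512 and 1260 CPM (2.63-fold, adjusted p = 0.0358). The wild-type libraries of these genes lay close together, whereas replicate 2 of *Jmjd1a* HY/HY mice was the highest library for each. *Pnpla3*, a lipid droplet protein, was at 129 to 163 CPM against 226 to 366 CPM (2.19-fold, adjusted p = 0.0263).

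**Figure D4:**
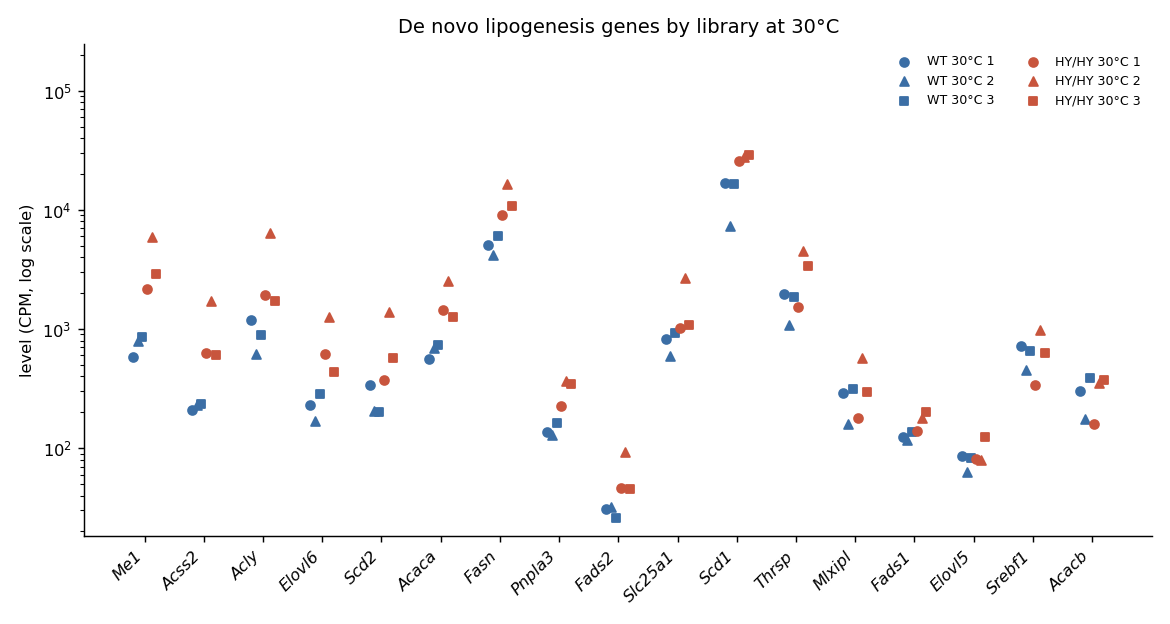
Level (CPM, log scale) of 17 de novo lipogenesis genes in each of the 6 libraries at 30°C, ordered by log2FC, with wild-type libraries in blue, *Jmjd1a* HY/HY libraries in red and the replicate number by the shape of the point. From *Me1* to *Scd1* the red points lie above the blue ones, and at *Thrsp*, *Mlxipl*, *Elovl5*, *Srebf1* and *Acacb* they overlap.

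The other lipogenic enzymes, named after their values were seen, did not pass the threshold, although most of them separated the genotypes. *Fasn*, the fatty acid synthase, was at 5088, 4163 and 6033 CPM in wild-type and at 9132, 16414 and 10715 CPM in *Jmjd1a* HY/HY libraries (log2FC 1.25, adjusted p = 0.0522). *Acly*, which makes cytosolic acetyl-CoA from citrate, had a log2FC of 1.89 (adjusted p = 0.0720), *Elovl6*, a fatty acid elongase, one of 1.76 (adjusted p = 0.0576), and the desaturase *Scd2* one of 1.64 (adjusted p = 0.0728). The transcription factor genes of the pathway showed less. *Srebf1* was at 726, 457 and 653 CPM against 336, 978 and 631 CPM (log2FC 0.08, adjusted p = 0.916), and *Mlxipl*, which encodes ChREBP, had a log2FC of 0.46 (adjusted p = 0.533). The median of the list was 1.06 without replicate 2 of wild-type mice, 1.24 when replicate 3 of the *Jmjd1a* HY/HY group was left out and 1.10 without both. Leaving out replicate 2 of the *Jmjd1a* HY/HY group gave 0.91, the lowest value over the single libraries left out, and the log2FC values of *Me1*, *Acss2* and *Acaca* were then 1.76, 1.45 and 1.04, each still called. *Me1*, *Acss2*, *Acaca* and *Pnpla3* each lost the call when replicate 1 or replicate 2 of wild-type mice was left out, *Acaca* also without replicate 3 of wild-type mice and *Pnpla3* also when replicate 3 of the *Jmjd1a* HY/HY group was left out, with adjusted p-values up to 0.109. In the mice at 8°C the same list had a median of −0.08, with 1 member called higher. The genotype difference of *Me1*, *Acss2* and *Acaca* itself differed between the temperatures (interaction adjusted p = 0.0372, 0.0375 and 0.0302 from edgeR), and that of *Pnpla3* did not pass (0.0603).

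Glycolytic genes lay in the same direction without passing the test. Of 21 genes of glycolysis and hypoxia, 16 had a positive log2FC, with a median of 0.39. In either direction 0 were called, where 1.00% of all genes were. *Aldoa*, the muscle-type aldolase that scWAT also uses, had a log2FC of 0.90 (adjusted p = 0.0806) and *Gapdh* one of 0.88 (adjusted p = 0.088). Both had all *Jmjd1a* HY/HY libraries above all wild-type libraries. *Pcx*, pyruvate carboxylase, was at 793, 897 and 1194 CPM against 1557, 2206 and 1529 CPM (log2FC 0.88, adjusted p = 0.0605). *Slc2a1*, the glucose transporter GLUT1, went the other way with a log2FC of −0.81 (adjusted p = 0.115). *Slc2a3*, the glucose transporter GLUT3, which is not in the list and was picked after its values were seen, fell, being at 9.13 to 18.7 CPM in wild-type and at 3.87 to 5.35 CPM in *Jmjd1a* HY/HY libraries (log2FC −1.49, adjusted p = 0.0375), and its adjusted p was 0.0632 with replicate 3 of the *Jmjd1a* HY/HY group left out. The 21 genes of triglyceride storage and lipolysis (median 0.36) and the 20 of cholesterol synthesis and uptake (median 0.38) had no called member, and the median of the former was 0.01 without both unusual libraries. The median of the cholesterol list was 0.09 with replicate 2 of the *Jmjd1a* HY/HY group left out and 0.72 with replicate 1 of that group left out.

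Among markers of mammary epithelium *Krt19* fell in *Jmjd1a* HY/HY mice, and the others did not pass the test. The scWAT of female mice can enclose ducts of the mammary gland, whose luminal cells express simple keratins. The labels do not name the fat pad sampled. Of 20 tested mammary epithelium markers 19 had a negative log2FC (median −0.86), 1 was called lower and 7 had all *Jmjd1a* HY/HY libraries below all wild-type libraries (against 0.441% called lower and 10.6% below over all genes). *Krt19*, a keratin of ductal epithelium, was at 1464, 1571 and 1202 CPM in wild-type and at 516, 587 and 293 CPM in *Jmjd1a* HY/HY libraries, 3.03-fold lower (log2FC −1.60 ± 0.28, adjusted p = 0.0292). The keratins *Krt8* (log2FC −1.54, adjusted p = 0.0519) and *Krt18* (−1.24, adjusted p = 0.0817) separated the genotypes without passing the test. The adhesion genes of the same cells differed less. *Epcam* had a log2FC of −0.75 (adjusted p = 0.23), *Cdh1*, E-cadherin, one of −0.72 (adjusted p = 0.309) and *Prlr*, the prolactin receptor, one of −1.08 (adjusted p = 0.198). The basal keratins depended on the unusual libraries. *Krt5* was at 15.6, 314 and 7.17 CPM in wild-type and at 53.1, 58.9 and 0.936 CPM in *Jmjd1a* HY/HY libraries, a log2FC of −1.57 (adjusted p = 0.527) that turned to 1.73 when replicate 2 of wild-type mice was left out and to 2.29 without both (adjusted p = 0.0392). *Krt14* moved likewise, from −1.42 (adjusted p = 0.549) to 1.71 and 2.26 (adjusted p = 0.0457 without both). The milk protein genes *Csn2* and *Wap* had 0 counts in all 6 libraries.

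The summed level of the 23 mammary epithelium markers was 6358, 7882 and 5155 CPM in wild-type and 3204, 3629 and 1358 CPM in *Jmjd1a* HY/HY libraries. At 8°C it was 3035 to 3492 CPM and 1830.3 to 2950.1 CPM, and the ranges did not overlap there either. The median log2FC of the list at 8°C was −0.13, with 1 of 20 members called lower, near the 4.42% of all genes. The median of the list at 30°C was −0.52 without replicate 2 of wild-type mice, −0.46 when replicate 3 of the *Jmjd1a* HY/HY group was left out and −0.16 without both. *Krt19* itself had a log2FC of −1.27 without both (adjusted p = 0.0783). Several other called genes are known from stratified or glandular epithelium and were picked out after their values were seen. They are *Tgm1* and *Lce6a* of the cornified envelope, the keratins *Krt4* and *Krt78*, the transcription factor gene *Ovol1*, *S100a14* and the laminin gene *Lama5*. Leaving out *Lce6a*, given above as a bound, their log2FC values ran from −1.25 for *Lama5* to −2.84 for *S100a14*, which was −1.88 with replicate 2 of wild-type mice left out. With replicate 3 of the *Jmjd1a* HY/HY group left out these 6 genes lost the call (adjusted p from 0.0599 for *Lama5* to 0.105 for *Krt4*), and with replicate 2 of wild-type mice left out all but *Tgm1* did (from 0.0750 for *Krt4* to 0.122 for *Ovol1*). For *Tgm1*, the transglutaminase of the cornified envelope, the libraries were at 23.98, 11.0 and 21.4 CPM against 5.73, 5.61 and 2.18 CPM. The 7 epidermis markers were at 12.2 to 140 CPM in wild-type and 9.20 to 19.9 CPM in *Jmjd1a* HY/HY libraries and overlapped. The part of the epithelial content of the samples in the fall of *Krt19*, *Ido1*, *Ctse* and the genes named with them was not tested.

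Among stromal and matrix genes a few rose and most did not pass the test. Of 24 genes of collagen and matrix, *Lox* and *Col15a1* were called higher (0.562% of all genes were) and none lower, and the median was 0.41. Without replicate 2 of wild-type mice both lost the call (adjusted p = 0.0696 for *Lox* and 0.0939 for *Col15a1*). *Lox*, which cross-links collagen and elastin, was at 17.4, 12.4 and 11.9 CPM in wild-type and at 41.0, 36.5 and 31.2 CPM in *Jmjd1a* HY/HY libraries (2.61-fold, adjusted p = 0.0195). *Col15a1*, a collagen of basement membranes, was at 136, 130 and 154 CPM against 371, 219 and 349 CPM (2.23-fold, adjusted p = 0.0309). At 8°C both were again called higher in the *Jmjd1a* HY/HY group, with log2FC values of 0.85 for *Lox* and 0.78 for *Col15a1*. The fibrillar collagens overlapped between the genotypes: *Col1a1* had a log2FC of 0.32 (adjusted p = 0.648) and *Col3a1* one of 0.35 (adjusted p = 0.586), with the highest level of each in replicate 1 of *Jmjd1a* HY/HY mice. Of 15 adipocyte progenitor markers, *Sema3c* was called higher (0.562% of all genes were), 12 had a positive log2FC and the median was 0.24. Their summed level was 1078 to 1259 CPM in wild-type and 1320 to 1649 CPM in *Jmjd1a* HY/HY libraries. When replicate 1 of the *Jmjd1a* HY/HY group was left out, the median of these markers was −0.10 and that of the collagen list 0.14. The part of the number of progenitor cells in the rise of *Lox*, *Adamts5* and *Sema3c* was not tested.

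The heat-producing and mitochondrial genes showed no called difference at 30°C apart from *Esrrb*. *Ucp1*, the uncoupling protein of beige and brown adipocytes, was at 4.58, 0.433 and 1.06 CPM in wild-type and at 0.116, 1.96 and 1.61 CPM in *Jmjd1a* HY/HY libraries (log2FC −0.71, adjusted p = 0.721). Its highest level was in replicate 1 of wild-type mice. Its log2FC was −1.22 without replicate 2 of wild-type mice, −0.90 without replicate 3 of the *Jmjd1a* HY/HY group and −1.42 without both. *Cidea*, a lipid droplet protein of beige and brown adipocytes, was at 60.2, 33.1 and 132 CPM against 35.5, 68.8 and 136 CPM (log2FC 0.09, adjusted p = 0.952). The log2FC of *Cidea* was −0.26 with replicate 2 of wild-type mice left out, −0.51 with replicate 3 of the *Jmjd1a* HY/HY group left out and −0.88 with both left out. *Cpt1b*, a carnitine palmitoyltransferase, had between 0 and 4 counts in each library. *Elovl3*, a fatty acid elongase induced by cold, was at 0.0453 to 0.585 CPM against 0.387, 4.82 and 0.520 CPM, and its log2FC of 2.34 (adjusted p = 0.229) rests on replicate 2 of *Jmjd1a* HY/HY mice. Of 24 tested thermogenic adipocyte genes 0 were called at 30°C (median 0.07), where 1.00% of all genes were. At 8°C 17 were called lower (median −2.04), against 4.42% of all genes. The median at 30°C was −0.19 with replicate 3 of the *Jmjd1a* HY/HY group left out and 0.35 without replicate 3 of wild-type mice.

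The coactivator genes of mitochondrial biogenesis were not called at 30°C either. *Ppargc1a* was at 3.44, 5.12 and 3.35 CPM in wild-type and at 4.61, 7.23 and 10.2 CPM in *Jmjd1a* HY/HY libraries (log2FC 0.87, adjusted p = 0.211). *Ppargc1b* was at 6.48, 4.58 and 10.2 CPM against 5.15, 4.03 and 4.31 CPM (log2FC −0.64, adjusted p = 0.221). The genotypes overlapped for both, and for their partners *Esrra* (log2FC 0.01) and *Gabpa* (0.07). At 8°C the log2FC values were −1.33 for *Ppargc1a*, −1.76 for *Ppargc1b*, −0.90 for *Esrra* and −0.64 for *Gabpa*. Among subunits of the respiratory chain, the log2FC at 30°C was 0.21 for *Ndufs8* of complex I, 0.20 for *Sdhb* of complex II, 0.46 for *Cyc1* of complex III and 0.36 for *Cox5a* of complex IV (adjusted p between 0.238 and 0.582). Over 82 nuclear subunits of oxidative phosphorylation the median was 0.16 at 30°C with 0 called (1.00% of all genes were), against −1.01 at 8°C with 71 called lower (4.42% of all genes were). The median at 30°C was −0.08 without both unusual libraries. For the 13 protein-coding genes of mitochondrial DNA it was 0.22, and −0.25 when replicate 3 of the *Jmjd1a* HY/HY group was left out, the library with the largest mitochondrial share. The 9 genes of mitochondrial fission and fusion (median 0.17) and 19 of the TCA cycle and pyruvate dehydrogenase (median 0.30) had no called member. The latter median was 0.12 with replicate 3 of the *Jmjd1a* HY/HY group left out, 0.54 without replicate 3 of wild-type mice and 0.03 without both unusual libraries.

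Most other groups had no called member, where 1.00% of all genes tested were called. Among 84 cytosolic ribosomal protein genes 81 had a negative log2FC, with a median of −0.26 that was −0.11 without both unusual libraries, and in 32 of the 84 all *Jmjd1a* HY/HY libraries lay below all wild-type libraries (10.6% of all genes did). The 2 called members, *Rpl39l* and *Rps4l*, went the other way (0.562% of all genes were called higher). Of 17 demethylases and methyltransferases of H3K9 none was called, and the median of −0.18 was −0.10 without replicate 1 of wild-type mice, −0.12 with replicate 3 of the *Jmjd1a* HY/HY group left out and −0.08 without both unusual libraries. *Ehmt2*, the methyltransferase G9a, was at 179 to 204 CPM in wild-type and 152 to 157 CPM in *Jmjd1a* HY/HY libraries (adjusted p = 0.142). The adipokines and fat expansion genes had a median of 0.48 with 15 of 18 positive and 0 called, and *Adipoq*, adiponectin, overlapped between the genotypes (log2FC 0.22, adjusted p = 0.765). Of 15 heat shock protein genes *Cryab*, the small heat shock protein αB-crystallin, was called: it was at 53.2, 67.0 and 60.9 CPM in wild-type and at 127, 186 and 90.8 CPM in *Jmjd1a* HY/HY libraries (2.23-fold, adjusted p = 0.0360). This is 1 of 15, against 0.562% of all genes called higher, and *Cryab* lost the call without replicate 1 (adjusted p = 0.109) or replicate 2 (0.0849) of wild-type mice. The lists of immune cell genes had no called member. Macrophage markers had a median of 0.34 with 17 of 19 positive and a summed level of 341 to 351 CPM against 369 to 609 CPM, and the 11 genes of MHC class II had a median of 0.41. Their median fell to 0.09 and 0.03 with replicate 1 of the *Jmjd1a* HY/HY group left out. The summed lymph node markers ran from 38.03 to 102 CPM in wild-type and from 88.3 to 391 CPM in *Jmjd1a* HY/HY libraries. Most of that sum was *Ighm*, an immunoglobulin chain, at 24.5 to 62.0 CPM against 73.0 to 344 CPM (log2FC 2.24, adjusted p = 0.088 from edgeR). Over the 15 tested lymph node markers the median log2FC was 0.06, with 9 positive and 6 negative. Interferon response genes had a median of −0.30, proliferation genes −0.21 and circadian clock genes −0.22, of which the last 2 were each −0.02 without replicate 1 of wild-type mice. With replicate 1 of the *Jmjd1a* HY/HY group left out the proliferation median was −0.51 and the circadian clock median −0.03.

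The mice at 8°C share no library with those at 30°C and give the genotype difference in other animals. Of the 73 genes lower at 30°C, 65 had a negative log2FC at 8°C (48.7% of all genes tested did), 15 were called lower there and none was called higher. Their median log2FC was −1.55 at 30°C and −0.63 at 8°C. Of the 93 genes higher at 30°C, 65 had a positive log2FC at 8°C (51.3% of all genes did), 20 were called higher and 4 were called lower. Their median was 1.08 at 30°C and 0.31 at 8°C. Over all genes at 8°C, 1.51% were called higher and 4.42% lower in the *Jmjd1a* HY/HY group. All 12 libraries enter the spread used for both sets of calls.

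Of the 15 genes that stayed past the threshold without the unusual libraries, 8 were called in the same direction at 8°C and none in the opposite one. *Rec8* was at 0.823 ± 0.0721 CPM in wild-type and 0.0640 ± 0.0648 CPM in *Jmjd1a* HY/HY libraries at 8°C (SD, n = 3; adjusted p = 0.0105 from edgeR), which is under 3 counts in each *Jmjd1a* HY/HY library, so no size is given for its change there. *Fam83e* (−4.27 and −2.46), *Ggt1* (−2.04 and −1.13), *Gpsm3* (−1.58 and −0.91) and *Lpcat4* (−1.23 and −0.70) were lower at both temperatures. *Adamts5* (1.52 and 1.01), *Olfm1* (1.20 and 0.94) and *Scn7a* (0.71 and 0.80) were higher at both. These 8 genes thus include a matrix protease, a secreted glycoprotein and an ion channel that rose, and enzymes of glutathione and phospholipid metabolism that fell. Of the called genes outside these limits, *Rpl39l* (2.35 and 2.18) was called in the same direction at both temperatures, and so was *Ctse* (−3.32 and −2.19). So was *Padi3*, whose means at 8°C were 0.747 CPM in wild-type and 0.0486 CPM in *Jmjd1a* HY/HY libraries, the latter again under 3 counts in each library. So was *Iqcm*, which had 1, 1 and 5 counts in the wild-type libraries at 30°C, so that the size of its change is poorly determined. In contrast *Cald1*, *B3glct* and *Mgat5* had log2FC values of 0.27, 0.01 and 0.01 at 8°C, and their genotype difference differed between the temperatures (interaction adjusted p = 0.0431, 0.0273 and 0.0255 from edgeR).

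**Figure D5:**
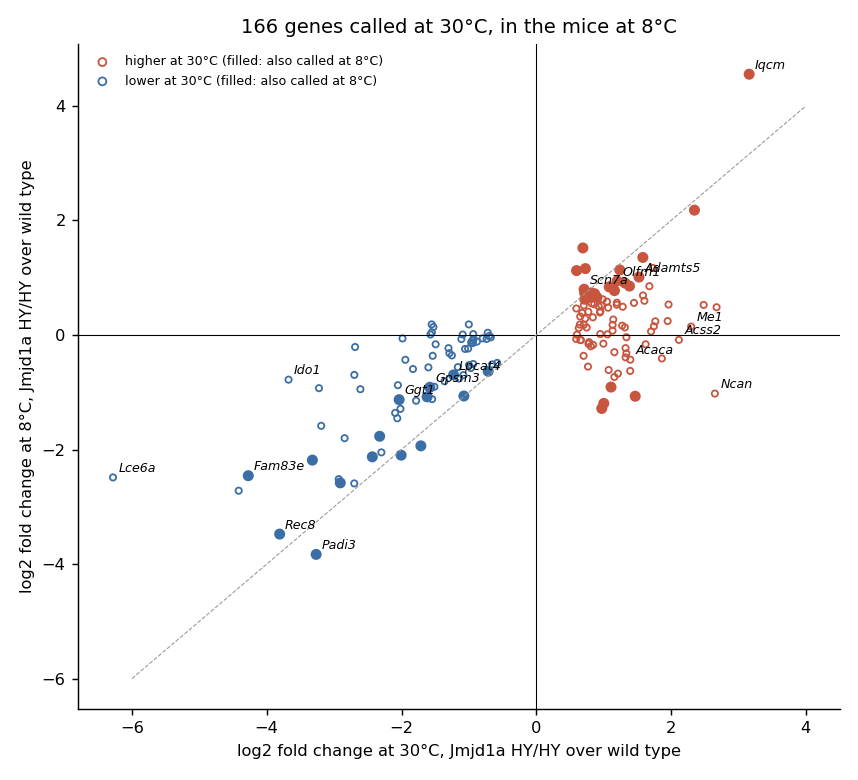
Log2 fold change of *Jmjd1a* HY/HY over wild-type mice at 8°C against that at 30°C for the 166 genes called at 30°C (red higher, blue lower), with filled points for genes also called at 8°C. The dashed line marks equal values. *Me1*, *Acss2* and *Acaca* are near 0 or below at 8°C. The values of *Rec8*, *Padi3* and *Iqcm* at 8°C rest on a group near 0 counts.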

How the data were processed

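scWAT RNA was sequenced as paired 50-base reads from TruSeq libraries. Per the labels and the methods of the study, the authors trimmed reads with fastp, used STAR against mm10, and deposited read-pair counts per gene for each library, unstranded and for each strand. The sense-strand counts, 95.9% to 96.1% of the stranded pairs at 30°C, were used as deposited. Rows of unassigned pairs were left out of library sizes: in the libraries at 30°C, 25.1% to 28.8% of pairs were unmapped, 26.7% to 31.8% had several alignments, 2.04% to 3.20% met no gene and 0.930% to 1.10% were ambiguous. The FPKM values were not used here.

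The low-count filter was edgeR's filterByExpr with its defaults, which kept 16540 of 55401 genes. Libraries were scaled by TMM and fitted with edgeR 4.0.16 (R 4.3.3) as 4 groups of 3, with Benjamini-Hochberg adjustment over all genes tested. CPM are TMM-scaled, and ± after a log2FC is its standard error. The labels name separate samples but no animals, so p-values measure the spread between these samples. In a simulation of HY/HY against wild type at 30°C over 16540 genes, 50% of 110 genes with 2-fold and 90% of 90 genes with 4-fold changes were recovered, and 7 of 16340 unchanged genes were called. The simulated counts at both temperatures were drawn with the spread of the joint model (20.7%, against 25.5% among the libraries at 30°C alone). These rates therefore do not hold for libraries as variable as the real ones at 30°C. Genes were named by rule: *Kdm3a*, sex-linked genes and genes the study names for this tissue; called genes with a symbol, a mean of 10 or more counts at 30°C and an adjusted p under 0.05 with the same sign without replicate 2 of wild-type mice, without replicate 3 of HY/HY mice and without both, up to 12 in each direction; the 4 largest rises and 4 largest falls among those that lost the call; and, in each list, up to 4 called members or, with none called, up to 2 of highest CPM. The genes named by size of change also had to have genotypes that did not overlap, which held for all 166 called genes. Other list members, *Igkc*, *Slc2a3*, *Fabp5*, *Prrx1*, *Folr1* and the epithelial and glycogen genes were picked after their values were seen. The members, lists and tests were chosen with earlier results of these data known. Alternatives were DESeq2 1.42.0, limma 3.58.1 with sample weights, other scalings and filters, both strands, a replicate block and libraries left out. The median log2FC of all genes was −0.01 with TMM and −0.08 with library totals. Gene positions are from RefSeq for GRCm38.p6. A result for 1 gene is not reported here.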

Additional observations from a re-analysis of the deposited data

Results flagged for a closer look

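For the 18 named genes given here the genotype difference itself differed between 30°C and 8°C, by the interaction term of the edgeR fit at an adjusted p under 0.05. The value given for each is the log2FC of HY/HY over wild type at 30°C minus that at 8°C. A first group was not called at 30°C and, *Aldoa* apart, was called lower at 8°C in the *Jmjd1a* HY/HY group. It holds *Ppargc1a* (2.19), a coactivator of mitochondrial biogenesis, *Gabpa* (0.708), a transcription factor, and the respiratory chain subunits *Ndufs8* (1.54), *Sdhb* (1.43), *Cox5a* (1.97) and *Cyc1* (1.73). *Atp5a1* (1.13) belongs to ATP synthase. *Gapdh* (1.96) and *Aldoa* (1.65) are enzymes of glycolysis, and *Gnas* (1.39) encodes the stimulatory G protein of adrenergic signalling. A second group was called at 30°C. *Me1* (2.15), *Acss2* (2.20) and *Acaca* (1.83) belong to de novo lipogenesis. *Ncan* (3.67), *Cryab* (1.46), *B3glct* (1.04) and *Cald1* (0.873) were also higher at 30°C, and *Mgat5* (−1.10) was lower. The mammary epithelium, muscle and mitochondrial shares that set single libraries at 30°C apart are given in the report, and their part in these differences was not tested.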

How the results depend on the processing

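The 31 called genes named by the rule kept their direction in each alternative fitted, but not their calls. Called genes picked after their values were seen were not put through every alternative. Numbers of genes higher and lower were 367 and 316 with DESeq2, 284 and 283 with no filter, 20 and 22 with library totals alone, 50 and 24 with limma sample weights, and 300 and 265 at an adjusted p under 0.1. Without both unusual libraries they were 38 and 26. With single libraries left out they ran from 5 (without replicate 1 of wild-type mice) to 271 (without replicate 1 of HY/HY mice) higher and from 21 to 92 lower, for the same libraries. With the 6 libraries at 30°C alone both were 0, as they were with a replicate block there. With a replicate block within temperature over 12 libraries they were 191 and 373. Deviations of same-numbered libraries correlated at −0.06, 0.16 and 0.35, so the numbers were not taken to pair the samples. Genes called in the same direction at both temperatures numbered 11 with library totals, 105 with no filter and 8 to 48 with single libraries left out. The cause was not tested.

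Median log2FC moved as follows. For the PGC-1 coactivators and partners it was −0.072 with library totals, −0.056 without both unusual libraries and −0.085 to 0.014 with single libraries left out. Without both, it was −0.0010 for mitochondrial fission and fusion, 0.29 for adipokines, 0.038 for inflammatory cytokines, −0.085 for immediate early genes, −0.35 for the integrated stress response, −0.16 for white adipocyte, −0.47 for skeletal muscle, 0.35 for Schwann cell, 0.43 for epidermis and −0.38 for erythrocyte markers. With single libraries left out it ran from 0.0012 to 0.20 for fission and fusion, −0.205 to −0.021 for circadian clock, −0.247 to −0.075 for immediate early genes, −5.26 to −0.35 for skeletal muscle, −1.78 to 0.29 for epidermis, −0.097 to 0.47 for adipocyte progenitor and −0.65 to 0.96 for lymph node markers. List medians without each of the 4 other libraries at 30°C were added after seeing the data.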

Other observations

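Genes of glycogen metabolism at 30°C include several that rose in the *Jmjd1a* HY/HY group, and this list was written after their values were seen. Of 18 genes 3 were called higher (0.562% of all genes were), none was called lower and the median log2FC was 0.10. Because the values were known when the list was written, these shares do not show that glycogen genes were called more often than others. *Gbe1*, the glycogen branching enzyme, was at 80.2, 80.1 and 86.2 CPM in wild-type and at 138, 282 and 202 CPM in *Jmjd1a* HY/HY libraries (log2FC 1.34, adjusted p = 0.0268 from edgeR). *Gys2*, the liver-type glycogen synthase, was at 20.4, 23.1 and 37.0 CPM against 42.2, 97.8 and 108 CPM (log2FC 1.62, adjusted p = 0.0402 from edgeR). *Pygl*, the liver-type glycogen phosphorylase, had a log2FC of 1.07. None of the 3 was called at 8°C, and without replicate 2 of wild-type mice all 3 lost the call at 30°C (adjusted p from edgeR 0.0837 for *Gbe1*, 0.121 for *Gys2* and 0.129 for *Pygl*). The genes *Fabp5*, *Prrx1* and *Folr1* were also picked after their values were seen. *Fabp5*, a fatty acid binding protein, was at 183 to 236 CPM against 349 to 1064 CPM (log2FC 1.70, adjusted p = 0.0357 from edgeR and 0.108 without replicate 2 of wild-type mice). *Prrx1*, a transcription factor of mesenchymal cells, was higher at 30°C (log2FC 0.86) and at 8°C (0.72), and its adjusted p at 30°C was 0.0544 from edgeR with replicate 3 of the *Jmjd1a* HY/HY group left out. *Folr1*, a folate receptor, was at 5.99 to 6.17 CPM in wild-type and at 1.46 to 2.69 CPM in *Jmjd1a* HY/HY libraries. It lost the call without both unusual libraries (adjusted p = 0.0557 from edgeR), and its log2FC at 8°C was 0.05 (adjusted p = 0.938).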
